A study of Rattus norvegicus with 15 samples.

Results

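The genes described here lie in the later part of rat chromosome 10, a stretch whose counterpart in people is the long arm of a single chromosome. The list holds 54 genes, and all 54 map to rat chromosome 10 in the RefSeq assembly GRCr8, between position 1597 (Gosr1) and position 2928 (Tbcd) of the 2943 genes of that chromosome in order. A probe set was taken as a member where the annotation of its array gives a listed symbol and no other. This gave 99 probe sets for 46 genes, out of 26202 probe sets in all, with 67 probe sets on array A (38 genes), 21 on array B (11 genes) and 11 on array C (10 genes). No probe set carried the symbol of the other 8 genes, Rffl, Mpo, Gfap, Crhr1, Gna13, Sox9, Galk1 and Arhgdia.

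Kidneys of 5-week-old rats were each read on short-oligonucleotide arrays. There were 3 designs, called A, B and C, and every design had 5 arrays with kidney numbers 1 to 5. The strains were Dahl salt-sensitive (Dahl S), an inbred rat that becomes hypertensive when fed much salt, and a congenic line derived from it. On B and C, kidneys 1 to 3 are labelled Dahl S (n = 3) and kidneys 4 and 5 congenic for chromosome 10 (n = 2). On A all 5 are labelled Dahl S, although numbers 4 and 5 are the congenic ones elsewhere, so that their strain is unsettled and they are called kidneys 4 and 5. Neither the donor strain, nor the ends of the segment, nor whether each number is 1 animal on all designs is given in the sources used here, so p-values cover the spread between these arrays alone, and that spread may be technical.

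A congenic strain is bred by crossing a chromosome segment of a donor into a recipient strain, and genes inside the segment then carry donor alleles while the rest of the genome is shared. Regulatory variants in such a segment can change the level of a nearby gene. Probe sequences and genomes of the strains were not among the sources used here. Probe sets were therefore not checked for donor variants under the probes, and the part of these in the signals was not tested. Rat chromosome 10 has long been studied for loci that affect blood pressure, which is the background to this design. Genes of the distal part have no common pathway. They include the kinase and adaptor genes Prkca, Map2k6 and Grb2, the transcription factors Stat3, Thra and Rara, the lipogenic enzymes Acly and Acaca, and genes best known from brain or muscle, such as Slc6a4 and Scn4a.

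The whole tables set the frame for the members. The median signal per array lay between 294.5 and 334.3 on A, between 472.8 and 519.5 on B and between 491.3 and 524.4 on C, and precision is limited by having 5 arrays. Of 14 kidney markers, array A carried 12, and all 12 reached the filter on low values, which is the median of all values of a design (319.5 on A, 485.8 on B, 510.3 on C). Their summed signal was 168800 to 193000 in kidneys 1 to 3 and 146600 to 173200 in kidneys 4 and 5. For the GAPDH control, the signal at the 3′ end divided by that at the 5′ end, a measure of RNA integrity, was 1.06 to 1.07 in kidneys 1 to 3 and 1.04 in both of kidneys 4 and 5 on A, and on C 1.09 to 1.11 against 1.05 in both. On B the groups overlapped, at 1.11 to 1.18 against 1.07 and 1.17. The part of this quotient in the differences below was not tested.

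Values were raised to a floor, the 25th percentile of a design (85.1 on A, 140.1 on B, 153.6 on C), before log2 was taken, and every difference is that of kidneys 4 and 5 minus kidneys 1 to 3. Of the 99 member probe sets, 63 reached the filter and were fitted (39 on A, 15 on B, 9 on C), which covered 35 genes. For 11 genes with probe sets none reached it. The first members of the list were chosen by their strain differences on B and C, so the values on those arrays are a description and carry no test. No use of array A values in that choice is stated, so they were tested, although the list was drawn up with results of all 3 designs known.

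The bases just before the annotated start are shown for Suz12, Scrn2 and Tbcd, the members with non-overlapping strain values and a log2 difference of at least 0.5 on B or C whose RefSeq promoter window holds 120 bases ahead of the first annotated base of the gene. The sequences are those of the RefSeq assembly GRCr8, made from a BN rat, and so of neither strain measured here. Capitals mark 4 motifs searched on either strand, namely GGGCGG (the GC box), then CCAAT (the CCAAT box), then TATAAA (the TATA box) and also CACGTG (an E-box), and no matches overlap here.
Suz12, chr10:65464828-65464947, plus strand: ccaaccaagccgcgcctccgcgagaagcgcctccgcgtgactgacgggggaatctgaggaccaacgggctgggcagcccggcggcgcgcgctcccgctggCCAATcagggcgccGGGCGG
Scrn2, chr10:82512923-82513042, plus strand: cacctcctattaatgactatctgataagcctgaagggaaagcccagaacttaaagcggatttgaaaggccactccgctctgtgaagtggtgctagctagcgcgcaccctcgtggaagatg
Tbcd, chr10:107215506-107215625, plus strand: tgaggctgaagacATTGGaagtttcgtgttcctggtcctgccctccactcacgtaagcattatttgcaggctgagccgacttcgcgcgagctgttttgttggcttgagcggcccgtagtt

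The Suz12 window held 1 GGGCGG and 1 CCAAT, the Tbcd window 1 CCAAT on the opposite strand, printed as ATTGG, and the Scrn2 window none of the 4 motifs. Among 22353 windows of this kind, 22.2% held the GC box, 20.6% the CCAAT box, 7.22% the TATA box and 3.06% the E-box. The Suz12 window was 75.8% G and C with 18 CG steps, against 50.8% and 5 for Scrn2 and 54.2% and 8 for Tbcd, where the median window had 52.5% and 3. Suz12 thus stands in a CG-dense stretch. Scrn2 and Tbcd were near the median window in percent G and C and above it in CG steps.

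On array B the members that differed most were higher in the congenic kidneys. Scrn2, a secernin of the peptidase family, measured 1432.8, 1480.5 and 1367.3 in Dahl S kidneys 1 to 3 and 2631.8 and 2578.2 in congenic kidneys 4 and 5. Both congenic values were far above the 3 Dahl S values, and within each strain the values lay close together (1427 ± 56.8, SD, n = 3, against 2605 ± 37.9, SD, n = 2; a 1.83-fold ratio, log2 difference 0.87, SE 0.13). It is the member with the widest difference on that array, and the one whose start region is printed above without any of the motifs.

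Mllt6 encodes a reader protein that works with the histone methyltransferase Dot1l. Its probe set rc_AA849991_g_at measured 2089.8, 1736.3 and 1834.8 in Dahl S and 3302.8 and 3108.2 in congenic kidneys. These values do not overlap (log2 difference 0.77, SE 0.14). The probe set rc_AA849991_at, designed from the same expressed sequence tag, measured 913.6, 1012.6 and 700.4 against 1020.2 and 1106.2, which also do not overlap, with the lower congenic value just above the highest Dahl S value (log2 difference 0.30, SE 0.19). The other probe sets overlapped, with 1187.2 in kidney 4 and 1849.4 in kidney 5 for rc_AI010147_at around Dahl S values of 1224.4 to 1389.8, and 2229.1 and 1682.0 for rc_AA943117_at around 1722.9 to 2115.9. Between the 4 probe sets of Mllt6 the difference thus spanned 0.71 on the log2 scale, the widest span of any member.

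Tbcd encodes a chaperone of tubulin folding and is the last member in gene order. Probe set rc_AI031037_at measured 1523.8, 1535.1 and 1723.9 in Dahl S and 2330.4 and 2507.9 in congenic kidneys (log2 difference 0.60, SE 0.13). Its other probe set, rc_AI070153_at, measured 2521.0, 2166.2 and 2420.4 against 2550.1 and 2854.5 (log2 difference 0.19, SE 0.14). Neither probe set overlapped between the strains, and the second came close to doing so.

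The remaining members on array B differed little. Stat3, the transcription factor that carries interleukin-6 signals to the nucleus, measured 6013.9, 5934.2 and 5818.6 against 4957.3 and 5815.5 with rc_AI012356_at, lower without overlap through a narrow margin in kidney 5 (log2 difference −0.14), and its other fitted probe sets overlapped (0.05 and 0.06). Csnk1d, a casein kinase that phosphorylates clock proteins, measured 5306.8, 5329.5 and 5717.4 against 5838.1 and 5990.8 (log2 difference 0.12). Blmh, the cysteine protease bleomycin hydrolase, measured 3480.4, 2934.5 and 3191.8 against 2932.8 and 2714.0 (log2 difference −0.18), and its highest congenic and lowest Dahl S values all but touched. Acaca, the acetyl-CoA carboxylase that commits carbon to fatty acid synthesis, overlapped (log2 difference −0.08), as did both fitted probe sets of the autophagy receptor Nbr1 (3747.6, 3144.5 and 3418.9 against 2949.1 and 3525.5, and 3096.9, 3229.7 and 3777.8 against 3142.6 and 2640.0).

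On array C the members that differed most were lower in the congenic kidneys. Tmem106a, a membrane protein, measured 2222.7, 1956.9 and 2002.7 in Dahl S and 1094.6 and 1232.7 in congenic kidneys, a 1.77-fold ratio (log2 difference −0.82, SE 0.14). Suz12, a core subunit of the Polycomb complex that methylates histone H3, measured 818.9, 702.1 and 718.1 against 469.2 and 457.6, below the filter value of the design in both congenic kidneys (log2 difference −0.68, SE 0.14). Nsf, the ATPase that takes apart SNARE complexes after membrane fusion, measured 1609.5, 1502.1 and 1548.5 against 1116.2 and 1116.6 (log2 difference −0.48, SE 0.13). Each of these genes has 1 probe set on array C, and in each the strains were separate with a gap wider than the range within either.

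Baiap2 encodes an adaptor protein of the actin cytoskeleton. It measured 1161.2, 1303.0 and 962.7 in Dahl S and 682.4 and 658.7 in congenic kidneys with rc_AA819554_at (log2 difference −0.76, SE 0.17). With rc_AI228657_at it measured 493.7, 518.7 and 684.5 against 603.4 and 371.6, which overlap (log2 difference −0.24, SE 0.24), and on array B its probe set lay below the filter at 84.6 to 373.0 against 124.9 and 236.1. The separation of Baiap2 was therefore seen with 1 of its 3 probe sets.

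Apoh, a phospholipid-binding plasma protein made mainly by liver, was the member of array C with higher congenic values that did not overlap, at 517.8, 503.2 and 601.1 against 828.6 and 670.5 (log2 difference 0.47, SE 0.16). The liver markers Alb and Tf did not reach the filter on this array, with sums of 161.7 to 229.6 in Dahl S and 189.1 to 228.4 in congenic kidneys, and Alb lay below the floor on all 5 arrays. The values of Gosr1, a Golgi SNARE (757.7, 899.5 and 493.2 against 750.6 and 897.5), and Aldoc, a brain-type aldolase (1420.1, 1832.3 and 1955.2 against 2384.6 and 1728.9), overlapped. Aatf, a nucleolar cofactor of transcription, did not reach the filter but measured 361.5, 279.7 and 344.8 in Dahl S and 95.3 and 155.4 in congenic kidneys, of which the first is below the floor.

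**Figure D1:**
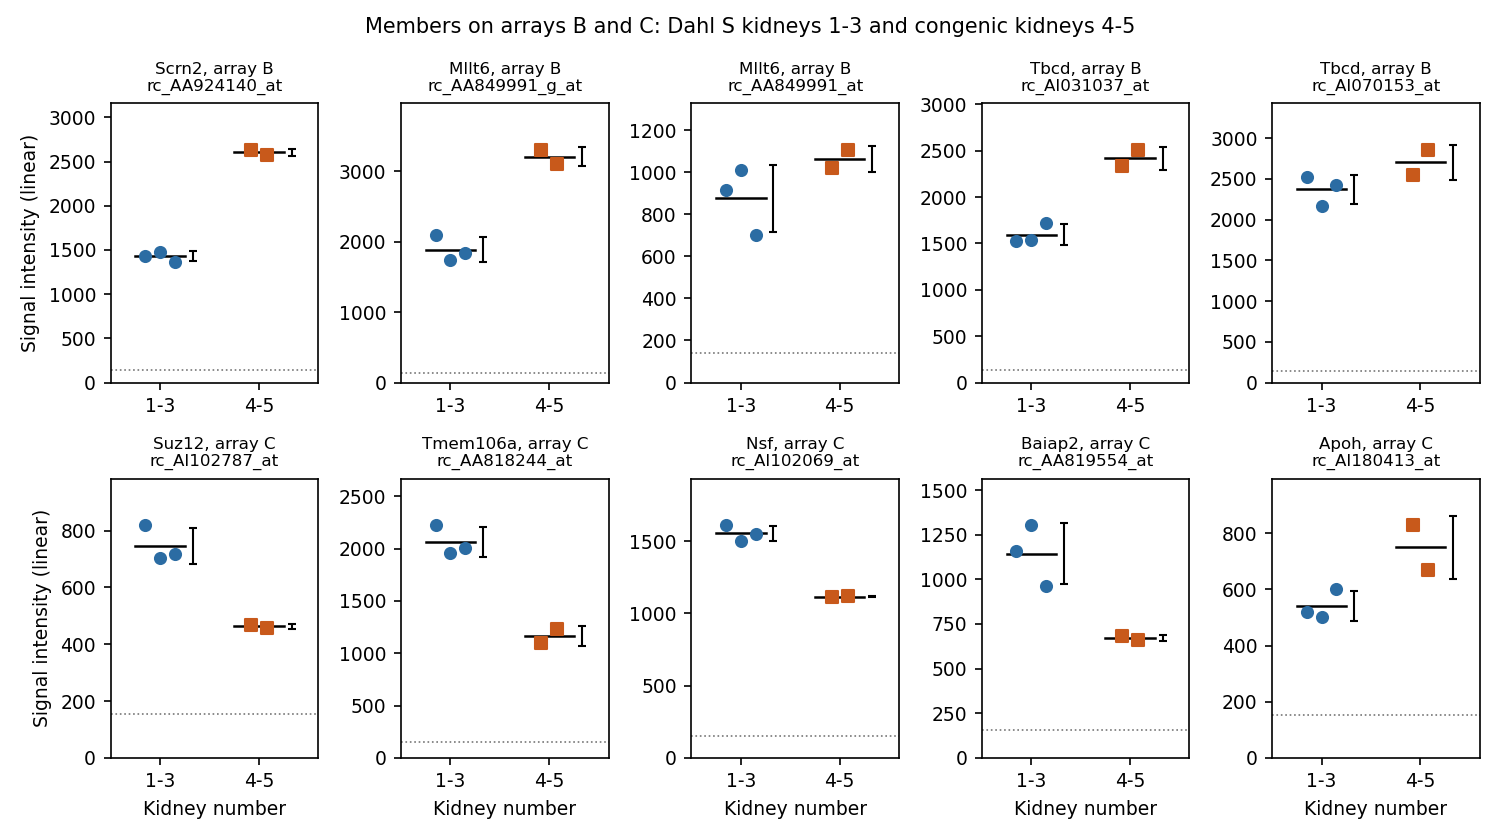
Signal intensity (linear axis from 0) of 10 member probe sets on arrays B and C, with Dahl S kidneys 1 to 3 as blue circles, congenic kidneys 4 and 5 as orange squares, horizontal lines for group means, bars for 1 SD and a dotted line for the floor. The 10 were taken from those without overlap between the strains. Scrn2 rests near 1427 in Dahl S and 2605 in congenic kidneys, and Nsf near 1553 and 1116, while the second probe sets shown of Mllt6 and Tbcd are close to overlapping.

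Counted over all fitted member probe sets, the strain values did not overlap for 8 of 15 on array B (6 higher, 2 lower; 17.2% of all fitted probe sets of the array, 7.73% higher and 9.44% lower) and for 5 of 9 on array C (1 higher, 4 lower; 22.4% of all, 10.2% higher and 12.2% lower). The choice of members used these values, and nothing is read from the counts. With each array scaled to a common median, the count on B was 4 in place of 8, and with a stricter filter, the 75th percentile, that on C was 2 of 4 fitted. The median log2 difference of the members was 0.06 on B and −0.24 on C, beside −0.005 on B and −0.01 on C over all fitted probe sets. Just inside a log2 difference of 0.5 with no overlap stood Tbcd (0.60), and just outside it Nsf (−0.48) and Apoh (0.47).

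On array A no member changed between kidneys 1 to 3 and kidneys 4 and 5 past an adjusted p of 0.05 (limma with Benjamini-Hochberg adjustment over 4411 probe sets, 0.0% called). The whole array gave 0 calls as well, with 154 probe sets at an unadjusted p under 0.05 (3.49%). Among the members 1 of 39 probe sets lay there, that of Jup. Values did not overlap for 7 of 39 member probe sets (3 higher, 4 lower), against 19.0% of all fitted probe sets (8.82% higher, 10.1% lower), so the share of the members was near that of the array. With 1 array left out the count was between 10 and 22, of 39 or 40, because fewer values overlap less often. The share of all fitted probe sets at those settings is not given here, so nothing is read from this rise. The median log2 difference of the members was −0.002, beside −0.02 over all probe sets.

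Jup encodes plakoglobin, a catenin that joins cadherins to keratin filaments at desmosomes. It measured 2047.7, 2040.4 and 1813.4 in kidneys 1 to 3 and 1290.1 and 1313.9 in kidneys 4 and 5 on array A. Both of kidneys 4 and 5 lay well below the others, at 1.51-fold lower signal (log2 difference −0.59, SE 0.16, limma unadjusted p = 0.00693, adjusted p = 0.999). The difference was between −0.65 and −0.53 under 11 other settings, including without any 1 array. No other member reached a log2 difference of 0.5 in size on this array without overlap, a mark that 2.77% of all its fitted probe sets passed.

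The signalling genes of array A covered 7 fitted genes with 11 probe sets, 7 higher and 4 lower. Erbb2, a receptor tyrosine kinase of the EGF receptor family, measured 633.4, 559.2 and 586.7 in kidneys 1 to 3 and 778.5 and 700.4 in kidneys 4 and 5 (log2 difference 0.32, SE 0.16, limma adjusted p = 0.999). Its groups do not overlap. Grb2, the adaptor that links such receptors to Ras, was slightly lower without overlap with 2 probe sets, by 0.15 and 0.08 on the log2 scale, the first at 2097.7, 2681.9 and 2096.6 against 2059.4 and 2034.3. Its remaining probe set lay below the filter.

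Nf1, the Ras-inactivating protein neurofibromin, went both ways on array A. Probe set M82826_i_at measured 1100.3, 1525.7 and 1441.1 against 1562.2 and 1863.3 (log2 difference 0.35), and D45201_at 692.4, 504.7 and 628.4 against 358.9 and 621.5 (−0.35). The second rests on kidney 4: without it the difference was 0.04, and without kidney 5 it was −0.75. The chemokine Ccl2, which attracts monocytes, overlapped with both probe sets, of which X17053cds_s_at measured 422.8, 335.2 and 411.0 against 388.5 and 535.3. The stress kinase gene Map2k6 was at 0.04 on the log2 scale.

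Csnk1d also had probe sets of opposite sign on array A. With rc_AI013513_at it measured 1323.8, 1092.8 and 1013.7 in kidneys 1 to 3 and 1003.6 and 910.7 in kidneys 4 and 5 (log2 difference −0.25), without overlap. With L07578_at it measured 951.6, 966.3 and 1767.7 against 1230.4 and 1480.7 (0.20), and kidney 3 was the highest of the 5. Of the 11 members with more than 1 fitted probe set on array A, the signs differed for 6 (Csnk1d, Grn, Mapt, Nf1, Rara and Thra). Over all arrays such genes had a median span of 0.30 between their probe sets, so a single probe set is a loose measure of a member.

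The nuclear receptors Thra, for thyroid hormone, and Rara, for retinoic acid, had 3 fitted probe sets each on array A, with differences of −0.002 to 0.26 and −0.17 to 0.16. All 6 overlapped between the groups. U15211_at of Rara ranged from 4062.8 to 7090.2 within kidneys 1 to 3 alone.

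Enzymes and protein folding genes of array A overlapped between the groups in all 9 fitted probe sets of 5 genes, where 19.0% of all fitted probe sets of the array did not. Their log2 differences lay between −0.34 (Acly) and 0.06. P4hb, protein disulfide isomerase, measured 11462.5, 10701.8 and 11620.0 in kidneys 1 to 3 and 11456.5 and 11382.9 in kidneys 4 and 5 with X02918_at (log2 difference 0.02), and its other probe sets gave 0.05 and 0.06. Acly, ATP citrate lyase, which supplies acetyl-CoA for lipid synthesis, measured 1144.5, 1210.3 and 610.8 against 1105.4 and 502.2 with J05210_at, so that kidneys 3 and 5 were low together whatever their number group. The other fitted probe sets of Acly gave −0.03 and −0.07 and did not repeat this. With J05210_g_at kidney 3 was the highest, at 2575.8, and kidney 5 measured 2102.3. With L27075_g_at all values lay between 483.1 and 532.4.

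Nme1 and Nme2, neighbouring nucleoside diphosphate kinase genes of high sequence likeness, were measured with 1 probe set each on array A, and signal may be shared between them. Nme1 gave 1135.2, 892.5 and 990.4 against 1046.8 and 984.0 (log2 difference 0.02), and Nme2 10495.7, 9119.2 and 8611.1 against 9104.4 and 8855.5 (−0.06). Hsd17b1, an oestrogen-forming dehydrogenase, lay below the filter with a single high value, 540.6 in kidney 4, beside 130.0, 190.5 and 241.2 in kidneys 1 to 3 and 178.4 in kidney 5.

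Of the vesicle and cytoskeleton genes, Cltc, the clathrin heavy chain, measured 3837.5, 4399.6 and 4104.8 against 4192.2 and 4530.0 on array A (log2 difference 0.09). Grn, the lysosomal growth factor progranulin, measured 6742.5, 6169.3 and 6732.1 against 5145.8 and 6236.3 with X62322_at (−0.21), overlapping through kidney 5, and its X62322_g_at gave 0.07. Mapt, the microtubule protein tau, was read by 3 probe sets, of which X79321_at measured 1997.0, 2358.8 and 2191.8 against 2402.3 and 2515.8 (0.18, no overlap), while rc_AI227608_s_at measured 1854.0, 2010.6 and 2197.7 against 1907.1 and 1391.0 (−0.31). Timp2, an inhibitor of matrix metalloproteinases, overlapped at 2443.3, 1954.5 and 2284.1 against 1759.8 and 2145.4 (−0.19).

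Most probe sets of genes best known from other tissues lay below the filter on array A. Of 15 such probe sets 5 were fitted, beside 4411 of 8740 on the whole array. That of Kcnj2, a potassium channel of muscle and brain, and 1 of 3 of the gut hormone Gip lay below the floor on all 5 arrays. Pnmt, the enzyme that makes adrenaline, measured 522.0, 431.0 and 393.5 against 413.9 and 310.0 (log2 difference −0.32, overlapping). Its adrenal companions on array A, 5 of 6 listed markers, summed to 945.7 to 1203 in kidneys 1 to 3 and 886.4 to 1104 in kidneys 4 and 5, and Star was below the floor throughout. Slc6a4, the serotonin transporter, measured 799.5, 890.4 and 1293.3 against 712.6 and 1133.8 with X63995_at. The neurotrophin receptor Ngfr varied little with X05137_at, at 1151.2 to 1238.2 against 1191.2 and 1108.7. Its other probe set, U25650_f_at, was bright, at 4255.3, 4283.0 and 4977.6 against 4081.0 and 4797.6. No member of this group separated the groups on array A among fitted probe sets.

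**Figure D2:**
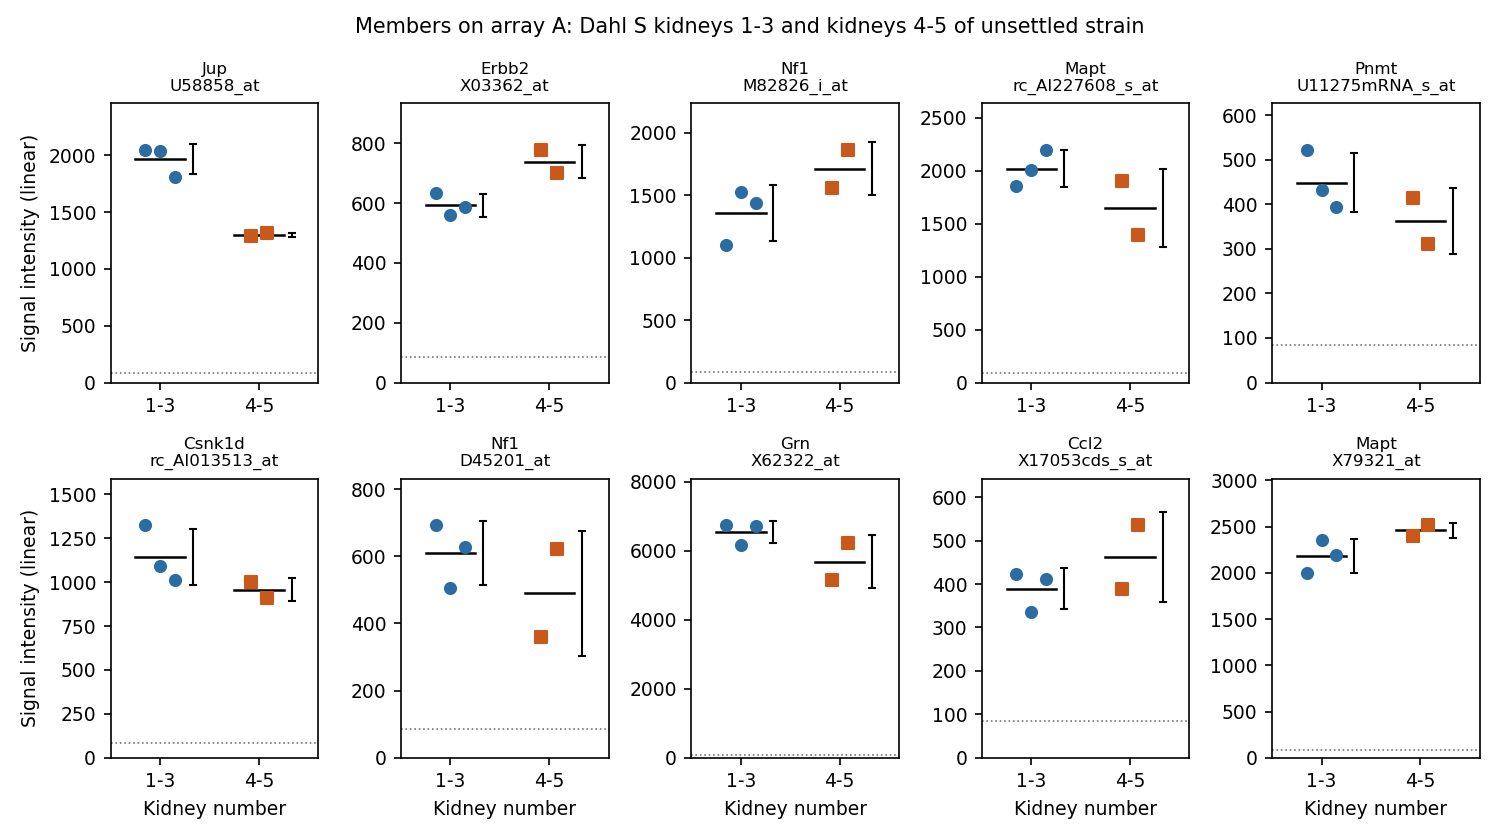
Signal intensity (linear axis from 0) of the 10 member probe sets with the smallest p on array A, with kidneys 1 to 3 as blue circles, kidneys 4 and 5 as orange squares, horizontal lines for group means, bars for 1 SD and a dotted line for the floor. Jup is the clearest separation, near 1967 against 1302, and the 2 probe sets shown of Nf1 and of Mapt point in opposite directions.

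Whether array A shows the differences of B and C could be asked of few members. Of the 11 members with non-overlapping strain values in a fitted probe set on B or C, 5 had a probe set on A and 3 a fitted one. These 11, of 15 members fitted on B or C, were counted at any fitted probe set. At the brightest fitted probe set, values did not overlap for 5 of 8 members on B and 5 of 8 on C. Over all genes at theirs, the shares were 16.9% on B and 21.9% on C. The choice of members used these values, and nothing is read from the counts. Of the 11, 6 also had a fitted difference of at least 0.5 in size on the log2 scale (Scrn2, Mllt6, Tbcd, Tmem106a, Suz12 and Baiap2). That mark was passed without overlap by 2.42% of all fitted probe sets on B and 3.19% on C. None of these 6 members had a probe set on A. The same held for Aatf, which was below the filter on C and so stands outside these counts (log2 difference −1.08, with kidney 4 below the floor).

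The 3 genes fitted on A and on B or C were Blmh, Stat3 and Csnk1d, taken at their brightest fitted probe set. Blmh was at −0.03 on A and −0.18 on B, with values of 2560.3, 2636.8 and 1876.7 against 2411.4 and 2170.2 on A. Csnk1d was at 0.20 on A and 0.12 on B. Its other fitted probe set on A, rc_AI013513_at, had the opposite sign (−0.25), without overlap. Stat3 was at 0.12 on A (490.1, 530.1 and 397.8 against 512.4 and 508.7), 0.05 on B (14743.1, 11135.8 and 15080.1 against 12041.8 and 16203.4) and −0.21 on C (4396.6, 4910.3 and 6389.9 against 4369.1 and 4564.8), overlapping on each.

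Thus 2 of 3 members kept 1 sign over the designs, beside 372 of 708 genes (52.5%) over all genes fitted on A and on B or C. The designs share kidney numbers, so these comparisons are not independent. With median scaling, with the median over the probe sets of a gene, or without array 1, 2 or 5, the count was 1 of 3. Too few members are shared to say whether array A follows B and C.

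The 8 other members with probe sets on A and on B or C lay below the filter on 1 side. Apoh was higher on C, and on A its probe set X15551cds_at measured 14.8, 14.9 and 16.2 in kidneys 1 to 3 and 195.0 and 75.3 in kidneys 4 and 5, with kidney 4 alone above the floor. X15551cds_g_at measured 45.4, 18.8 and 24.1 against 195.6 and 27.4, again with kidney 4 alone above it. The liver markers Apoa1 and Alb of array A, neither of which reached the filter, summed to 269.7 to 368.7 in kidneys 1 to 3 and 300.5 to 329.0 in kidneys 4 and 5. Taken singly they went opposite ways, with Apoa1 higher in kidneys 4 and 5 (log2 difference 0.35) and Alb lower (−0.38).

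Nsf, lower on C, was at 27.2 to 33.8 on all 5 arrays of A with AF091834_at and between 17.7 and 115.7 with AF089839_at, around or below the floor, so that array A does not inform on it. Gosr1 measured 61.1, 290.6 and 364.4 against 322.6 and 261.6 on A, where kidney 1 alone was low. Nf1 and Thra on B, and Cacng1, a calcium channel subunit of muscle, on C, were below the filter, as were Aldoc and Acaca on A.

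**Figure D3:**
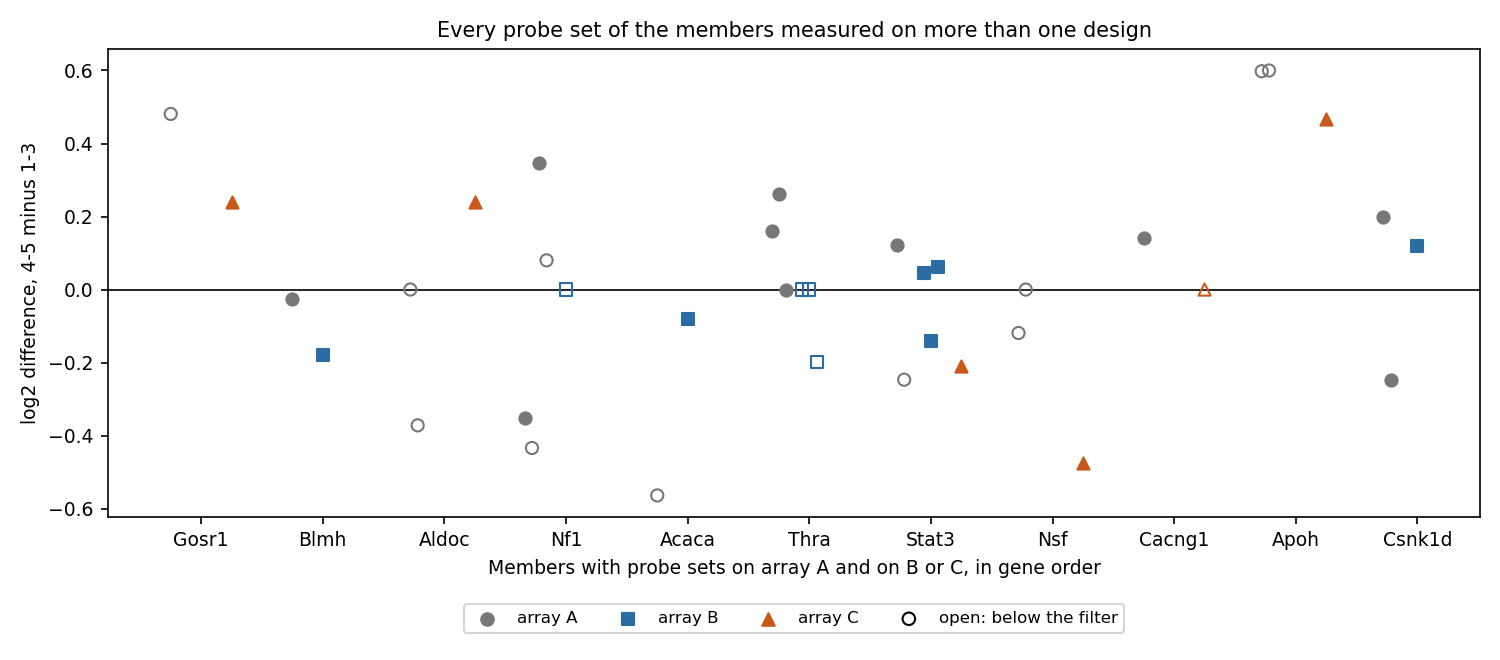
Log2 difference of kidneys 4 and 5 minus kidneys 1 to 3 for every probe set of the 11 members measured on array A and on B or C, in gene order, with A as grey circles, B as blue squares, C as orange triangles and open marks below the filter. Only Blmh, Stat3 and Csnk1d have fitted values both on A and on B or C, and the open grey marks of Apoh near 0.60 have kidney 4 as their only value above the floor.

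In gene order, the named members with higher and with lower congenic values stood between one another. The first members were chosen with these values in view, so nothing is read from their order. Suz12 at position 1712 was lower, as was Aatf, below the filter, at 1824, Scrn2 at 2102 and Mllt6 at 2122 higher, Tmem106a at 2347 and Nsf at 2446 lower, Apoh at 2547 higher, and at the end Baiap2 at 2843 lower and Tbcd at 2928 higher. Among these, the higher ones other than Apoh were read on array B and the lower ones on array C. On B, Blmh was lower without overlap by 0.18 on the log2 scale, through a narrow margin, and Csnk1d higher by 0.12. Stat3 was lower without overlap there with rc_AI012356_at alone (−0.14), also through a narrow margin. Its other fitted probe sets on B overlapped (0.05 and 0.06). Stat3 was the only member with fitted probe sets on both B and C, and its values on C overlapped. Members could therefore hardly be compared between these arrays. Jup, lower on array A, stands at 2273 between Mllt6 and Tmem106a.

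The non-member genes between Gosr1 and Tbcd were read in the same way. On array A 106 such genes were fitted, 49 higher and 57 lower, with a median log2 difference of −0.04 (all fitted genes −0.01). An unadjusted p under 0.05 was reached by 5 (4.72%) beside 3.25% of all fitted genes, and none passed the adjusted threshold. Without a filter on low values the count was 12 of 168, with the filter at the 75th percentile 2 of 47, and without array 2 it was 3. Values did not overlap for 21 of the 106 (19.8%), beside 19.2% of all fitted genes.

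At an unadjusted p under 0.01 without overlap stood Krt19 and Stat5b. Krt19, a keratin of simple epithelia at position 2260, close before Jup, measured 927.5, 787.2 and 968.4 against 458.6 and 468.3 on array A with X81449cds_g_at (log2 difference −0.94, SE 0.17, limma adjusted p = 0.999), and 554.6, 516.3 and 561.6 against 246.5 and 365.4 with X81449cds_at (−0.86). Its differences on B and C were −1.03 and −1.56. Stat5b, which carries growth hormone signals and lies close before Stat3, at position 2299, measured 775.1, 521.1 and 726.3 against 1063.2 and 1167.8 on array A (0.75, SE 0.21, limma adjusted p = 0.999). Vezf1, an endothelial zinc finger gene, was at 0.90 on B and −0.04 on A, where kidneys 4 and 5 lay on either side of the others (938.5 and 1388.0 against 1168.5 to 1187.1).

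On B and C the shares without overlap among these other distal genes were 24.4% (32 of 131) and 32.3% (41 of 127), above the all-gene shares of 16.9% and 21.9%; these differences were not tested. Those of the earlier part of the chromosome were 20.3% on B and 23.8% on C, and 27.3% (33 of 121) on A. The median absolute log2 difference of the other distal genes was 0.12 on B and 0.14 on C, where all fitted genes had 0.12 and 0.13. By stretches in gene order on C, members included, the median absolute difference was largest from Gosr1 to Cltc, which holds Suz12. It was 0.25 over 24 genes (signed median −0.06), with 4 higher and 8 lower genes without overlap. From Mpo to Jup it was 0.14 over 26 genes (2 higher, 6 lower), and from Acly to Itgb3 0.10 over 29 (3 higher, 2 lower). From Scn4a to Tbcd it was 0.15 over 48 genes (6 higher, 15 lower). From Gosr1 to Cltc it was 0.15 on A and 0.12 on B. Suz12 was chosen with its C values in view, and the stretches were not tested.

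**Figure D4:**
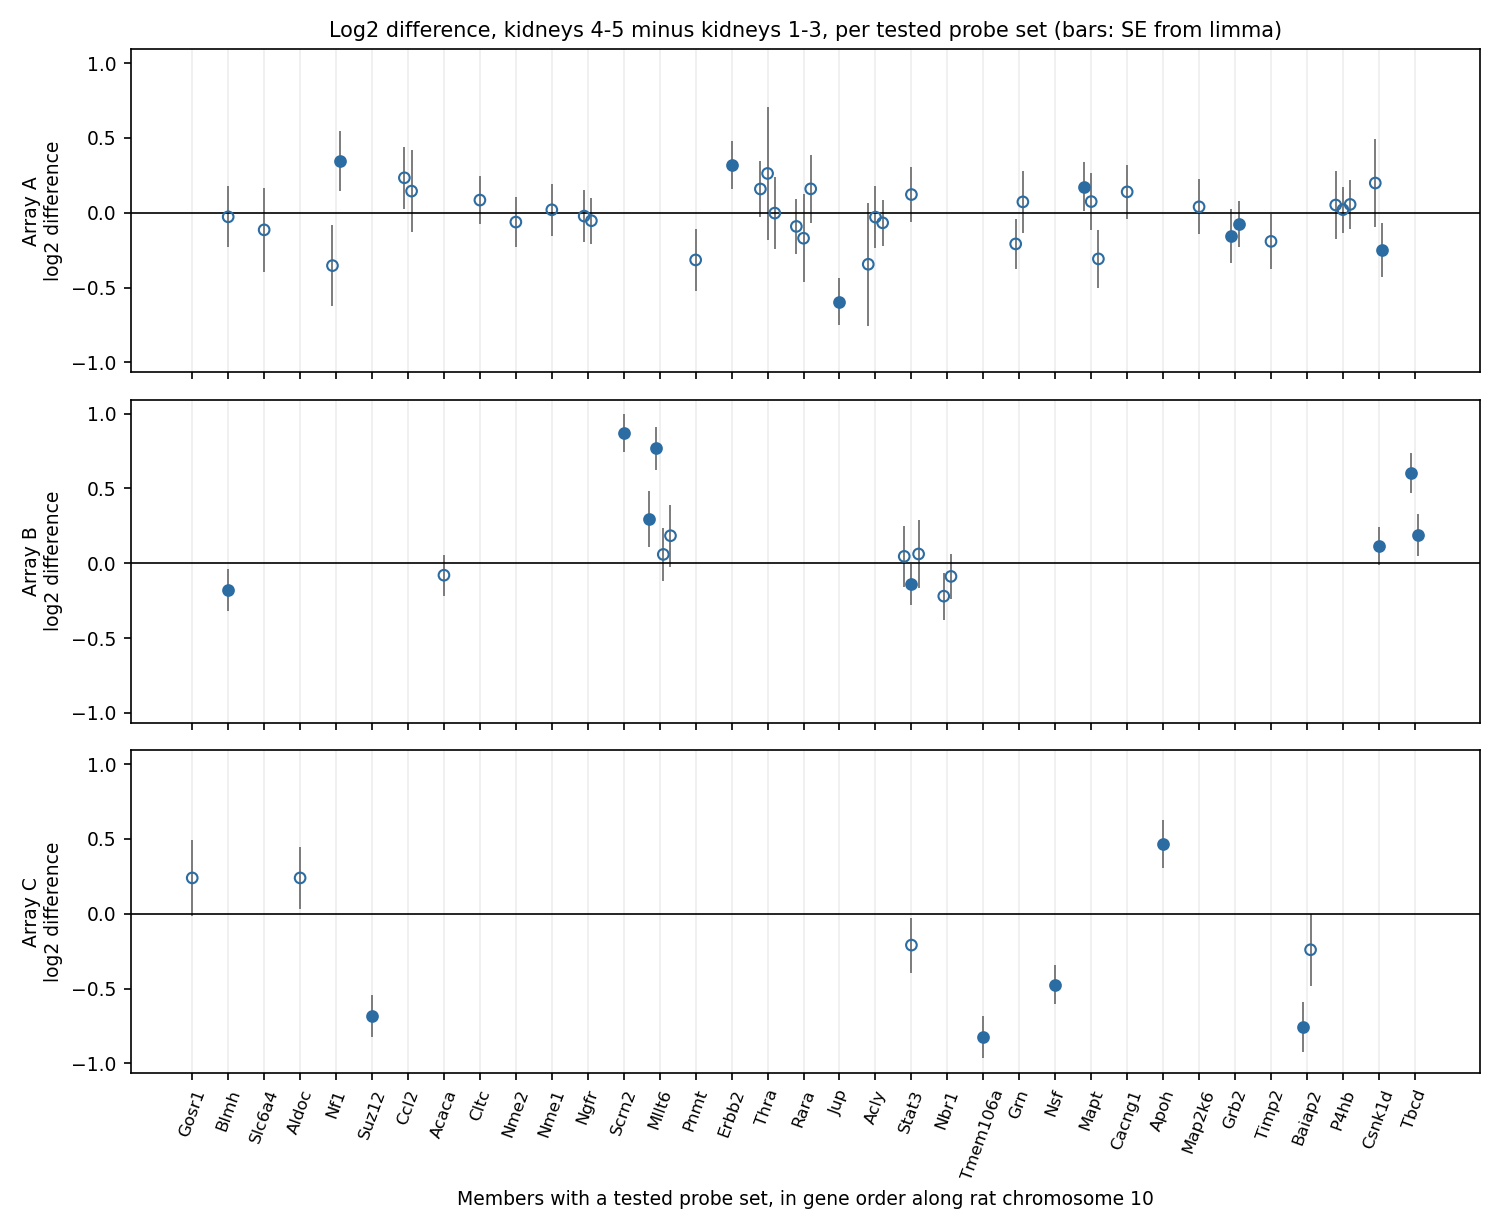
Log2 difference of kidneys 4 and 5 minus kidneys 1 to 3 (y axis, bars are the SE from limma) for each fitted member probe set on arrays A, B and C, with the genes in their order along chromosome 10 and filled points where the groups do not overlap. On A the points lie between −0.59 (Jup) and 0.35 (Nf1), on B Scrn2, Mllt6 and Tbcd stand above 0.5, and on C Tmem106a, Baiap2 and Suz12 stand below −0.5.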

How the data were processed

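The authors deposited 1 linear signal intensity per probe set and array, made by steps not given in the sources used here. All arrays shared 1 scale, with a mean of about 1001 after trimming the top and bottom 2% of values, and it was kept. Each design was treated alone: floor, log2, filter on the mean over 5 arrays, then limma 3.58.1 (lmFit, eBayes; R 4.3.3), leaving out 59 control probe sets. On A, groups follow the kidney number in the titles. The procedure was tested on simulated data.

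Platform symbols were updated by gene identifier to RefSeq GRCr8, with 6985 matches among the 7006 probe sets of array A that have 1 symbol, 5333 among 5351 for B and 5804 among 5821 for C. Several symbols were listed for 308, 38 and 45 probe sets (among them 1 for Blmh and a pseudogene, not used) and none for 1426, 3343 and 2864.

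The members and lists were chosen with earlier results of these data known. Values per array are given for member probe sets without overlap and past 0.5 in log2 difference, the 10 with the smallest p on A, genes fitted on A and on B or C, and the first 10 members listed. Other members with values were chosen after those were seen, as examples of their role. Non-members are named at an unadjusted p under 0.01 without overlap on A, plus Krt19 and Vezf1. A gene is represented by its brightest fitted probe set. Alternatives were quantile and median scaling, other floors and filters, an intensity trend, the median over probe sets, and each array left out.

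Other marker lists on A had these summed signals in kidneys 1 to 3 and in kidneys 4 and 5: red blood cells 15810 to 23380 and 21750 to 24610, leukocytes 9722 to 15270 and 9889 to 13460, nerve and glia 894.5 to 934.4 and 497.9 to 993.5, skeletal muscle 837.4 to 927.7 and 481.9 to 940.6, fat 290.1 to 473.0 and 193.8 to 349.1.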

Additional observations from a re-analysis of the deposited data

Results flagged for a closer look

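Among the member probe sets that were not fitted, X15551cds_at of Apoh on array A was the one in which both of kidneys 4 and 5 lay above kidneys 1 to 3 with a value above the floor. It measured 195.0 in kidney 4, and 75.3 in kidney 5, where kidneys 1 to 3 lay at 14.8 to 16.2. In kidney 4 alone, the Apoh probe set X15551cds_g_at (195.6 against 18.8 to 45.4) and the probe set of Hsd17b1 (540.6 against 130.0 to 241.2) were also above kidneys 1 to 3.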

How the results depend on the processing

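No member passed an adjusted p of 0.05 on array A under any setting run. For the whole of array A the count was 2 without a filter on low values, and 0 to 25 when 1 array was left out, where 25 came without array 5 and the lone kidney 4 is then assumed to vary like the others. Member probe sets without overlap numbered 10 to 22 on A when 1 array was left out, because fewer values overlap less often. There were 14 without array 2 or 3, 18 without array 5 and 22 without array 4. On B they numbered 8 to 12, and 4 with median scaling. On C they numbered 5 to 7, and 2 with a stricter filter, the 75th percentile. The shares of all fitted probe sets at these settings are not given here, so nothing is read from these counts. Other distal genes at an unadjusted p under 0.05 on A numbered 12 without a filter, 2 with that stricter filter and 3 to 6 with 1 array left out. Members of 1 sign over the designs numbered 1 of 3 with median scaling or with the median over probe sets, and 1 to 2 with 1 array left out. Without a filter 11 members entered, but Nf1 on B and Cacng1 on C lay below the floor on all 5 arrays. Their differences there have no sign, so a count without a filter is not given. Of 362 recomputed log2 differences of the 34 named probe sets, 10 moved by more than the spread between replicates, all with array 4 or 5 left out, and none of those without overlap changed sign. Except where fewer values or probe sets entered, the cause was not tested. No paired analysis was possible because kidneys 1 to 3 and kidneys 4 and 5 share no number. Depth is unknown for arrays, and signals near the floor set no order.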
